A study of Ovis aries with 15 samples.

Results

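The growth hormone and insulin-like growth factor (IGF) axis was followed in fetal sheep liver (Ovis aries) through 10 genes chosen by name, namely the growth hormone receptor gene GHR, the ligand genes IGF1 and IGF2, the receptor genes IGF1R and IGF2R, the acid-labile subunit gene IGFALS, and the binding protein genes IGFBP1, IGFBP2, IGFBP3 and IGFBP4. These are 10 of the 31411 genes in the deposited table, and all 10 were among the 16977 genes tested. The study sequenced poly(A) RNA of whole fetal liver at gestational day (GD) 100 (n = 4 libraries), GD124 (n = 5) and GD144 (n = 6), and the stages lie 24 and 20 days apart. No breed, treatment or genotype is given in the labels, so the groups are described here by stage alone. The comparisons ask which transcripts of the axis changed across the last part of gestation, in GD124 against GD100, in GD144 against GD124 and in GD144 against GD100.

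In this axis, growth hormone from the pituitary binds its receptor on hepatocytes, and the receptor signals through the kinase JAK2 and STAT5 proteins to transcription of IGF1 and IGFALS. IGFs circulate bound to binding proteins, and after birth most of them travel in a complex of an IGF, IGFBP3 and the acid-labile subunit. IGF2 is a main growth factor of the fetus, IGF1R transmits the growth signal of both ligands, and IGF2R takes up IGF2 for breakdown. In fetal sheep the growth hormone receptor of the liver is known to mature late in gestation.

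The libraries held 24215612 to 38247295 estimated counts, and 3 counts, taken as the floor of detection, amounted to 0.0797 to 0.128 counts-per-million units (CPM). All 10 genes lay far above this floor, with the lowest count being 203, for IGFBP1 in GD100 replicate 1. Fractional counts were more frequent in GD100 replicates 2 to 4 (10.6 to 10.8% of genes) than in the remaining 12 libraries (5.09 to 6.2%). Hepatocyte markers (10 of 10 listed genes tested, none at or under 3 counts in every library of a stage) had summed levels of 58140 to 175060 CPM at GD100, of 220948 to 258399 CPM at GD124 and of 172525 to 215990 CPM at GD144. Erythroid markers (11 of 12 listed genes in the table) summed to 4021 to 9613, 1903 to 4303 and 120.4 to 3450 CPM at these stages. GD144 replicate 3 stood apart with the erythroid sum of 3450 CPM, against 120.4 to 410.7 CPM in the other GD144 libraries. The sample codes differ in their letters between stages, so a cohort or batch that follows them cannot be told apart from stage. The labels do not say that each library is 1 fetus, so the p-values reflect the spread among these libraries, which may be technical.

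Most genes of the axis rose in the earlier interval, and GHR and IGFBP4 rose again in the later one. In GD124 against GD100, of the 10 genes, 7 rose (GHR, IGF1, IGF2, IGF2R, IGFBP1, IGFBP2 and IGFBP4) and 0 fell at an adjusted p under 0.05 in the quasi-likelihood test of edgeR, beside 34.0% of all tested genes called (16.6% higher and 17.4% lower). The median log2 change of the 10 genes was 0.93, against 0.02 over all tested genes. In GD144 against GD124, 2 of the 10 rose (GHR and IGFBP4) and 0 fell, beside 27.5% of all tested genes called (12.1% higher and 15.4% lower). Their median log2 change was 0.27, against -0.01 over all tested genes. In GD144 against GD100, 6 rose (GHR, IGF1, IGF2, IGFBP1, IGFBP2 and IGFBP4) and 0 fell, beside 55.0% of all tested genes called (27.1% higher and 27.9% lower), so the count in either direction lies near the background, as it does in GD144 against GD124. The genes whose libraries did not overlap between stages numbered 6 in GD124 against GD100, 2 in GD144 against GD124 and 4 in GD144 against GD100, where 24.3%, 18.8% and 40.0% of all tested genes did not overlap. The 3 comparisons share libraries and are therefore not independent of each other. In bulk tissue, more cells of a type and more RNA of a gene per cell cannot be told apart.

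**Figure D1:**
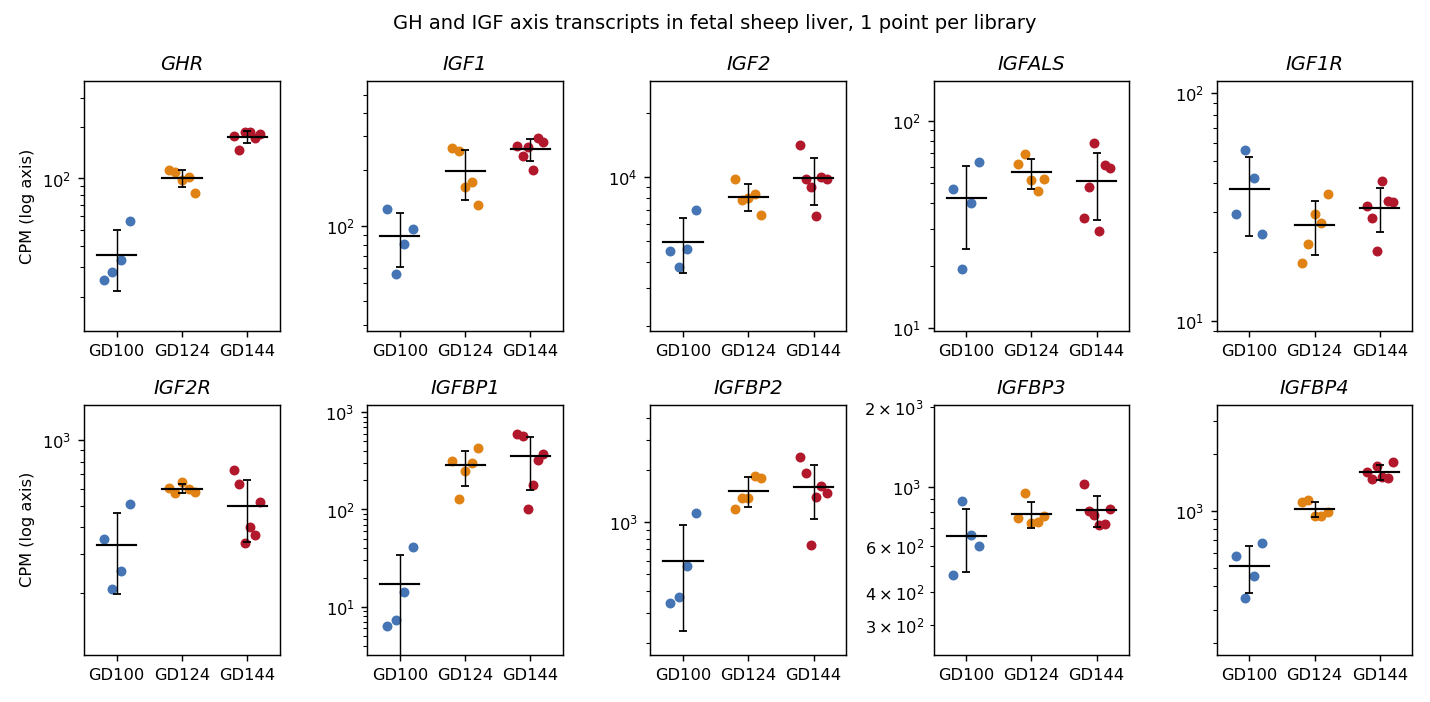
Level of each of the 10 genes in each library, in CPM on a log axis with a scale of its own per gene, at GD100 (n = 4), GD124 (n = 5) and GD144 (n = 6). Points are libraries, horizontal bars are stage means and whiskers are SD (the lower whisker of IGFBP1 at GD100 leaves the axis). GHR and IGFBP4 form 3 separate bands that climb with stage, IGFBP1 lies at 6.41 to 41.4 CPM at GD100 and at 101.5 to 596.2 CPM later, and IGFALS, IGF1R and IGFBP3 overlap between all stages.

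**Figure D2:**
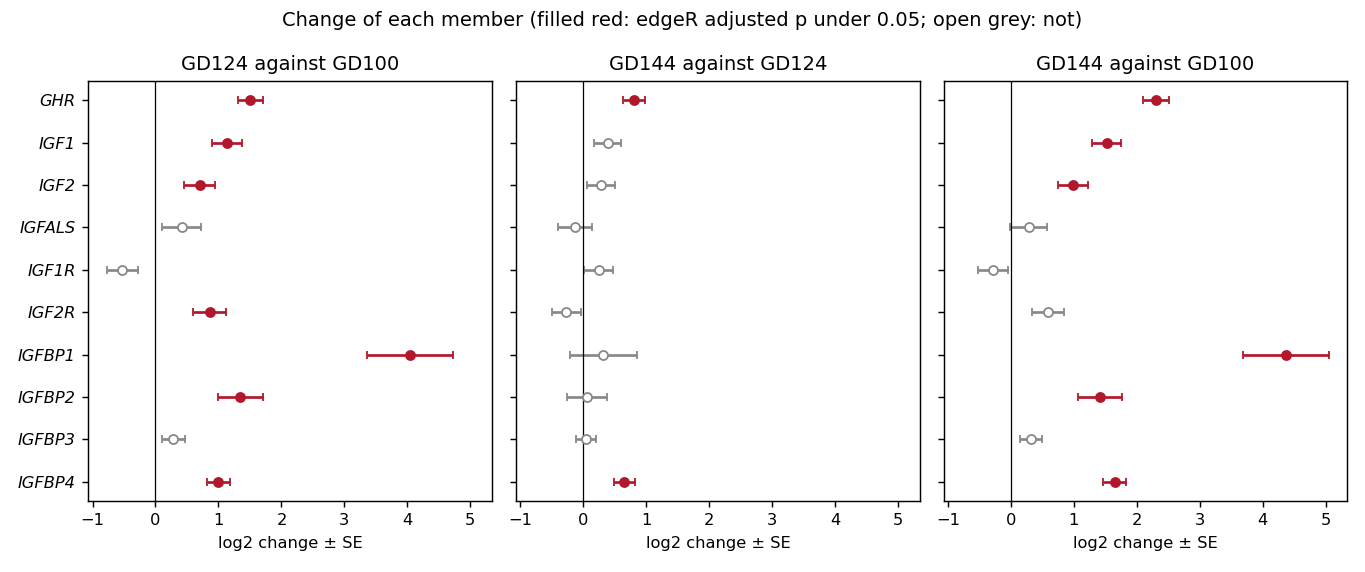
Log2 change of each of the 10 genes with its SE in GD124 against GD100, GD144 against GD124 and GD144 against GD100. Filled red points passed an edgeR adjusted p under 0.05 and open grey points did not. The largest estimates belong to IGFBP1 (4.04 and 4.37), and in the later interval the filled points are GHR (0.80) and IGFBP4 (0.65).

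GHR, which encodes the receptor through which growth hormone acts on hepatocytes, rose in both intervals. Its level was 25.1, 28.0, 33.2 and 55.8 CPM in the GD100 libraries, 112.4, 109.4, 98.5, 101.6 and 82.1 CPM in the GD124 libraries, and 148.1 (lowest), 179.8 (median) and 187.8 CPM (highest) in the 6 GD144 libraries. No library of one stage reached into the range of another, and GD100 replicate 4 was the GD100 library closest to GD124. The stage means were 35.5 ± 13.9 CPM at GD100, 101 ± 11.9 CPM at GD124 and 176 ± 14.9 CPM at GD144 (SD, n = 4, 5 and 6). The log2 change was 1.505 ± 0.199 (SE) in GD124 against GD100 with an edgeR adjusted p of 1.55e-04, which is 2.84-fold. It was 0.80 ± 0.17 in GD144 against GD124 (edgeR adjusted p = 0.00273) and 2.31 ± 0.20 in GD144 against GD100 (edgeR adjusted p = 1.75e-07). Of all tested genes, 91.1% had a smaller absolute change than GHR in the earlier interval and 77.0% in the later one. The spread among libraries was 39.1% of the mean at GD100, 11.8% at GD124 and 8.45% at GD144.

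Both ligand genes rose in the earlier interval. IGF1, the main growth hormone-dependent ligand, had 123.1, 55.6, 80.6 and 97.2 CPM in the GD100 libraries, 260.3, 252.2, 162.1, 172.6 and 130.5 CPM in the GD124 libraries, and 198.9 (lowest), 264.1 (median) and 294.7 CPM (highest) in the GD144 libraries. Every GD124 and GD144 library lay above every GD100 library, while GD124 and GD144 overlapped. The log2 change of IGF1 was 1.13 ± 0.24 in GD124 against GD100 (edgeR adjusted p = 0.00211) and 1.52 ± 0.23 in GD144 against GD100 (edgeR adjusted p = 4.40e-05). The later change of 0.39 ± 0.21 did not pass (edgeR adjusted p = 0.185). With GD100 replicate 1 as the single library of its stage the earlier change was 0.67 with an edgeR adjusted p of 0.198, and 25 of 26 alternative settings kept the call.

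IGF2, the ligand of prenatal growth, had 4516, 3778, 4590.4 and 7025 CPM in the GD100 libraries, 9783, 7805, 7975, 8292 and 6601 CPM in the GD124 libraries, and 6547 (lowest), 9788 (median) and 14126 CPM (highest) in the GD144 libraries. GD100 replicate 4 lay above GD124 replicate 5, so these stages overlapped in 1 library each. The means were 4977 ± 1414 CPM at GD100, 8091 ± 1142 CPM at GD124 and 9873 ± 2447 CPM at GD144 (SD, n = 4, 5 and 6). In GD144 against GD100 the log2 change was 0.99 ± 0.24 (edgeR adjusted p = 0.0024), a call kept in all 26 alternative settings. In GD124 against GD100 it was 0.70 ± 0.25 (edgeR adjusted p = 0.0376), and 12 of 26 alternative settings moved its adjusted p past the threshold, within a range of 0.00796 to 0.110. The change of 0.29 ± 0.22 in GD144 against GD124 did not pass (edgeR adjusted p = 0.365).

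The receptor genes of the IGFs did not move alike. IGF2R, the receptor that clears IGF2, had 354.4, 207.7, 251.8 and 509.1 CPM in the GD100 libraries, 607.9, 572.6, 644.3, 598.5 and 580.7 CPM in the GD124 libraries, and 338.2 (lowest), 463.5 (median) and 729.0 CPM (highest) in the GD144 libraries. The GD124 libraries were tightly grouped and all above GD100, whereas the GD144 libraries spread over the ranges of both earlier stages. The log2 change was 0.86 ± 0.26 in GD124 against GD100 (edgeR adjusted p = 0.0193), -0.27 ± 0.23 in GD144 against GD124 (edgeR adjusted p = 0.428) and 0.59 ± 0.25 in GD144 against GD100 (edgeR adjusted p = 0.0573). The earlier call was lost without GD100 replicate 2 (edgeR adjusted p = 0.0703), without GD100 replicate 3 (edgeR adjusted p = 0.0750) and with GD100 replicate 1 as the single library of its stage (edgeR adjusted p = 0.161). The GD144 against GD100 difference passed in 8 of 26 alternative settings.

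IGF1R, the tyrosine kinase that signals for both ligands, spanned 23.9 to 56.3 CPM at GD100, 18.0 to 36.0 CPM at GD124 and 20.2 to 40.9 CPM at GD144. The 3 stages overlapped and no comparison passed. Its log2 change of -0.52 ± 0.25 in GD124 against GD100 (edgeR adjusted p = 0.116) was the only estimate below 0 among the 10 genes in that interval. It passed as lower when total counts alone set the scale (-0.73, edgeR adjusted p = 0.0486) and without GD100 replicate 4 (-0.72, edgeR adjusted p = 0.0322). IGF1R shares part of its span with PGPEP1L in the annotation, and PGPEP1L had at most 1.67 CPM in any library. Its counts in GD100 replicates 2 and 3 were fractional as deposited, and these are also its highest libraries at that stage.

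Among the binding protein genes, IGFBP1 had the largest change. IGFBP1, a short-lived binding protein whose gene is repressed by insulin in the adult liver, had 6.41, 7.33, 14.1 and 41.4 CPM in the GD100 libraries, 314.2, 127.5, 249.4, 302.2 and 433.5 CPM in the GD124 libraries, and 101.5 (lowest), 347.4 (median) and 596.2 CPM (highest) in the GD144 libraries. The highest GD100 library, replicate 4, lay below the lowest library of either later stage, and GD144 overlapped GD124. The log2 change was 4.04 ± 0.68 in GD124 against GD100 (edgeR adjusted p = 7.55e-04), which is 16.5-fold, and 4.37 ± 0.69 in GD144 against GD100 (edgeR adjusted p = 9.13e-05). Of all tested genes, 99.5% and 96.9% had a smaller absolute change in these comparisons. Its log2 change of 0.32 ± 0.53 in GD144 against GD124 did not pass (edgeR adjusted p = 0.696).

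IGFBP1 was also the most variable of the 10 genes within a stage, with an SD of 94.8% of the mean at GD100, 38.9% at GD124 and 56.0% at GD144. At GD144 the low libraries were replicates 3 and 4, with 101.5 and 179.9 CPM, and replicates 1 and 2 were high, with 596.2 and 568.5 CPM. IGFBP1 overlaps CCDC201 in the annotation and the use of strand in counting is not given in the sources used here, so reads of the 2 genes may be mixed. CCDC201 had 2.03 to 4.69 CPM at GD100, 7.92 to 15.3 CPM at GD124 and 4.83 to 21.1 CPM at GD144. The IGFBP1 count of GD100 replicate 4, its highest library at that stage, was fractional as deposited (1057.92).

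IGFBP2, the binding protein abundant in fetal serum, had 341.4, 369.8, 558.5 and 1126 CPM in the GD100 libraries, 1194, 1382, 1378, 1853 and 1815 CPM in the GD124 libraries, and 742.1 (lowest), 1541 (median) and 2393 CPM (highest) in the GD144 libraries. GD124 lay wholly above GD100, and at GD144 replicate 3 fell below GD100 replicate 4. The log2 change was 1.35 ± 0.36 in GD124 against GD100 (edgeR adjusted p = 0.00905) and 1.41 ± 0.35 in GD144 against GD100 (edgeR adjusted p = 0.00263). In GD144 against GD124 it was 0.06 ± 0.31 (edgeR adjusted p = 0.909), an estimate that turned to -0.056 without GD144 replicate 1 and to -0.015 without GD124 replicate 1.

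IGFBP4, a binding protein that releases IGF when the protease PAPPA cuts it, rose in both intervals. Its level was 572.9, 345.5, 451.4 and 671.8 CPM in the GD100 libraries, 1107, 1135, 939.0, 937.3 and 978.7 CPM in the GD124 libraries, and 1479 (lowest), 1551 (median) and 1818 CPM (highest) in the GD144 libraries. The stages did not overlap in any of the 3 comparisons. The log2 change was 0.998 ± 0.19 in GD124 against GD100 (edgeR adjusted p = 0.00101), 0.65 ± 0.17 in GD144 against GD124 (edgeR adjusted p = 0.00802) and 1.65 ± 0.19 in GD144 against GD100 (edgeR adjusted p = 2.00e-06).

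The genes of the ternary complex other than the ligands passed no test. IGFBP3, the main IGF carrier of adult serum, spanned 462.8 to 881.0 CPM at GD100, 727.3 to 946.9 CPM at GD124 and 720.2 to 1022 CPM at GD144. Its log2 change was 0.28 ± 0.18 in GD124 against GD100 (edgeR adjusted p = 0.255), 0.05 ± 0.16 in GD144 against GD124 (edgeR adjusted p = 0.872) and 0.32 ± 0.18 in GD144 against GD100 (edgeR adjusted p = 0.132). Among all tested genes, 30.5%, 7.46% and 26.0% had a smaller absolute change. Without GD100 replicate 2, the highest GD100 library, the GD144 against GD100 estimate was 0.52 and passed (edgeR adjusted p = 0.0183). With GD100 replicate 1 as the single library of its stage, IGFBP3 passed as higher in GD124 against GD100 (0.77, edgeR adjusted p = 0.0398) and in GD144 against GD100 (0.82, edgeR adjusted p = 0.0133).

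IGFALS, which encodes the acid-labile subunit, a liver product induced by growth hormone after birth, spanned 19.2 to 63.0 CPM at GD100, 45.9 to 69.6 CPM at GD124 and 29.3 to 78.1 CPM at GD144. Its log2 change was 0.42 ± 0.31 in GD124 against GD100 (edgeR adjusted p = 0.314), -0.13 ± 0.27 in GD144 against GD124 (edgeR adjusted p = 0.765) and 0.29 ± 0.30 in GD144 against GD100 (edgeR adjusted p = 0.433). The 3 stages overlapped, and none of the 26 alternative settings gave a call in GD124 against GD100 or in GD144 against GD100. IGFBP1 and IGFBP3 are neighbouring genes in the annotation of assembly ARS-UI_Ramb_v3.0, as are IGFBP2 and IGFBP5. In the earlier interval IGFBP1 passed with a log2 change of 4.04 and its neighbour IGFBP3 did not pass.

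The difference between the 2 intervals was tested directly as the later change minus the earlier change. It was below 0 for IGFBP1, at -3.72 ± 0.93 (SE, log2, edgeR adjusted p = 0.0323), so the change in GD144 against GD124 was smaller than that in GD124 against GD100. IGFBP1 was the 1 of the 10 genes that passed, beside 5.90% of all tested genes (2.15% higher and 3.75% lower). The estimates of the other 9 genes ran from -1.29 for IGFBP2 and -1.13 for IGF2R to 0.77 for IGF1R, the sole gene above 0, and none of the 9 passed. For IGF1, which was called in the earlier interval and not in the later one, the difference was -0.74 ± 0.38 (edgeR adjusted p = 0.243). Without GD100 replicate 4, the differences of GHR (-0.95, edgeR adjusted p = 0.0143), IGF2R (-1.36, edgeR adjusted p = 0.0331) and IGFBP2 (-1.72, edgeR adjusted p = 0.0295) passed as well. The call for IGFBP1 was lost in 9 of 24 alternative settings, within a range of adjusted p of 0.00192 to 0.126.

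Single libraries carried much of the spread among the 10 genes. GD100 replicate 4 was the highest GD100 library for 7 of the 10 genes (GHR, IGF2, IGF2R, IGFALS, IGFBP1, IGFBP2 and IGFBP4) and the lowest for IGF1R. It also had the highest hepatocyte marker sum at that stage, 175060 CPM, against 58140 to 105466 CPM in the other 3. GD100 replicate 2, with the lowest hepatocyte sum, was lowest for IGF1, IGF2, IGF2R, IGFALS and IGFBP4 and highest for IGF1R and IGFBP3. At GD144, replicate 1 was highest for 5 genes (IGF2, IGF2R, IGFBP1, IGFBP2 and IGFBP3), and replicate 3 was highest for IGFALS and lowest for IGF1R, IGF2R, IGFBP1 and IGFBP2. In replicate 3 the summed level of proliferation markers (8 of 8 listed genes tested) was 236.4 CPM, against 43.2 to 64.5 CPM in the other GD144 libraries. The part of these markers in the values of the axis was not tested.

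With GD100 replicate 4 and GD144 replicate 3 both left out, an alternative chosen after seeing the data, 8 of the 10 genes were called in GD124 against GD100, 2 in GD144 against GD124 and 7 in GD144 against GD100. In the same setting 36.7%, 26.5% and 52.6% of all tested genes were called. The added calls were IGF1R, lower in GD124 against GD100 (-0.71, edgeR adjusted p = 0.0225), and IGF2R, higher in GD144 against GD100 (0.95, edgeR adjusted p = 0.00288). The log2 change of IGFBP1 was then 4.92 in GD124 against GD100 and 5.44 in GD144 against GD100, and that of GHR was 2.57 in GD144 against GD100.

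**Figure D3:**
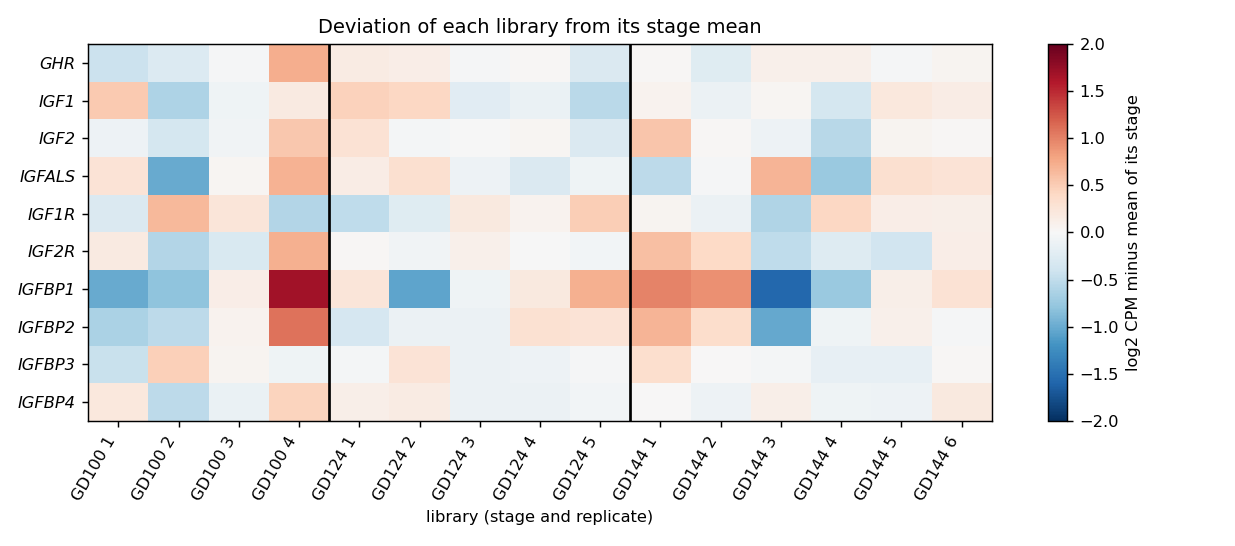
Deviation of each library from the mean of its stage for the 10 genes, as log2 CPM minus the stage mean of log2 CPM, with red above and blue below the mean. Columns are libraries ordered by stage and replicate, and black lines part the stages. GD100 replicate 4 is red in most rows, and the darkest blue cell is IGFBP1 in GD144 replicate 3.

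Hepatocyte markers moved with the axis in the earlier interval. Of 10 hepatocyte genes, 8 were higher and 0 lower in GD124 against GD100, 2 were higher and 1 lower in GD144 against GD124, and 7 were higher and 0 lower in GD144 against GD100. Beside these counts, 34.0%, 27.5% and 55.0% of all tested genes were called, so the count in GD144 against GD124 is near the background. The mean log2 CPM of the hepatocyte genes differed by 1.32, -0.02 and 1.30 in these comparisons. Relative to the hepatocyte mean, as a description, IGFBP1 stood 2.97 higher on the log2 scale in GD124 against GD100, GHR 0.23 and IGFBP2 0.18. On the same scale the differences were -0.19 for IGF1, -0.29 for IGFBP4, -0.38 for IGF2R, -0.60 for IGF2, -0.81 for IGFALS, -1.01 for IGFBP3 and -1.80 for IGF1R. In GD144 against GD124, where the hepatocyte mean hardly differed, GHR stood 0.83 higher and IGFBP4 0.67 higher relative to it.

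Most erythroid markers fell over the same period, with 3 of 11 lower in GD124 against GD100 and 10 of 11 lower in GD144 against GD124, and 0 higher in either. The marker HBB alone had an estimate above 0 in GD124 against GD100. Its log2 change was 2.04 ± 1.06, which did not pass (edgeR adjusted p = 0.154), although its libraries did not overlap. Its mean level was 216.6 CPM at GD100, 892.9 CPM at GD124 and 597.5 CPM at GD144. HBM, KLF1, GATA1, SLC4A1, EPB42 and AHSP had estimates of -2.14 to -1.61 in GD124 against GD100 that did not pass. Their libraries did not overlap either, beside 24.3% of all tested genes without overlap. Proliferation markers fell as well, with 5 of 8 lower in GD124 against GD100 and 8 of 8 lower in GD144 against GD124, and their sums ran over 957.5 to 2233 CPM at GD100, 370.5 to 837.5 CPM at GD124 and 43.2 to 236.4 CPM at GD144. Stellate and other mesenchymal markers, from cells that are a further source of binding proteins, had sums of 677.8 to 1073 CPM at GD100, of 1134 to 1452 CPM at GD124 and of 1071 to 1809 CPM at GD144. Of these 12 genes, 5 were higher in GD124 against GD100 and 4 in GD144 against GD124, with 0 lower in either. In GD144 against GD100, 9 were higher and 1 lower, beside 55.0% of all tested genes called. LRAT and PDGFRB had estimates below 0 in GD124 against GD100 that did not pass (-1.10 and -0.28, edgeR adjusted p = 0.0871 and 0.334). The mean level of LRAT was 7.48 CPM at GD100, 3.48 CPM at GD124 and 3.24 CPM at GD144. Sinusoidal endothelial markers (8 of 10 listed genes tested) summed to 250.3 to 454.7 CPM at GD100, 330.4 to 624.4 CPM at GD124 and 618.3 to 893.2 CPM at GD144, with 4 of 8 higher in GD124 against GD100, 6 of 8 higher in GD144 against GD124 and 0 lower in either. Their marker FCN3 was at or under 3 counts in every GD144 library. Markers of Kupffer cells, the macrophages of the liver (9 of 10 listed genes tested), had sums of 93.7 to 414.1 CPM at GD100, of 345.9 to 592.7 CPM at GD124 and of 410.6 to 748.6 CPM at GD144. Of these 9 genes, 5 were higher and 1 lower in GD124 against GD100, and 2 were higher and 0 lower in GD144 against GD124. Of 5 tested megakaryocyte markers, 3 were lower and 0 higher in GD124 against GD100, and 4 were lower and 1 higher in GD144 against GD124. Of 5 tested bile duct markers, 1 was higher and 0 lower in GD124 against GD100. Beside these counts, 34.0% of all tested genes were called in GD124 against GD100 and 27.5% in GD144 against GD124. The erythroid and bile duct counts in GD124 against GD100 are near or under this background. So are the mesenchymal and Kupffer cell counts in GD144 against GD124. The part of these cell types in the changes of the axis was not tested.

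Ratios of the counts of 2 of the genes within a library do not depend on library scaling. Transcript lengths were not used, so a ratio gives no order of molecule numbers, and only its change between stages is read. Counts of IGFBP1 amounted to 0.833 to 6.94% of those of IGFBP3 in GD100 libraries, 13.5 to 55.9% in GD124 libraries and 12.9 to 69.9% in GD144 libraries. The log2 ratio differed by 4.05 in GD124 against GD100 (p = 0.0159, exact permutation test, two-sided, adjusted p = 0.0594) and by 4.19 in GD144 against GD100 (p = 0.00952, exact permutation test, two-sided, adjusted p = 0.0571), with no overlap between libraries in either. The IGFBP1/IGFBP2 ratio likewise did not overlap, with log2 differences of 2.86 in GD124 against GD100 and 3.05 in GD144 against GD100 and the same p-values.

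The ratio of IGF1 to GHR counts ran over 105.9 to 170.9% at GD144 and 174.2 to 489.7% at GD100, without overlap, and the log2 ratio differed by -0.81 (p = 0.00952, exact permutation test, two-sided, adjusted p = 0.0571). The ratio of IGFALS to IGF1 counts ran over 12.8 to 29.8% at GD144 and 34.6 to 64.9% at GD100, and the log2 ratio differed by -1.24 (p = 0.00952, exact permutation test, two-sided, adjusted p = 0.0571). The IGF1/IGF2 ratio overlapped between stages and differed by 0.58 on the log2 scale in GD144 against GD100 (p = 0.0381, exact permutation test, two-sided, adjusted p = 0.0831). The IGF1R/IGF2R ratio differed by -1.43 in GD124 against GD100 and overlapped between stages (p = 0.0317, exact permutation test, two-sided, adjusted p = 0.0762). Of 24 such tests (8 ratios in 3 comparisons), 13 had an unadjusted p under 0.05 and 0 passed after Benjamini-Hochberg adjustment over the 24 tests, where the lowest adjusted p was 0.0571. With these numbers of libraries the smallest two-sided p of the exact permutation test is 0.0159 in GD124 against GD100, 0.00433 in GD144 against GD124 and 0.00952 in GD144 against GD100.

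**Figure D4:**
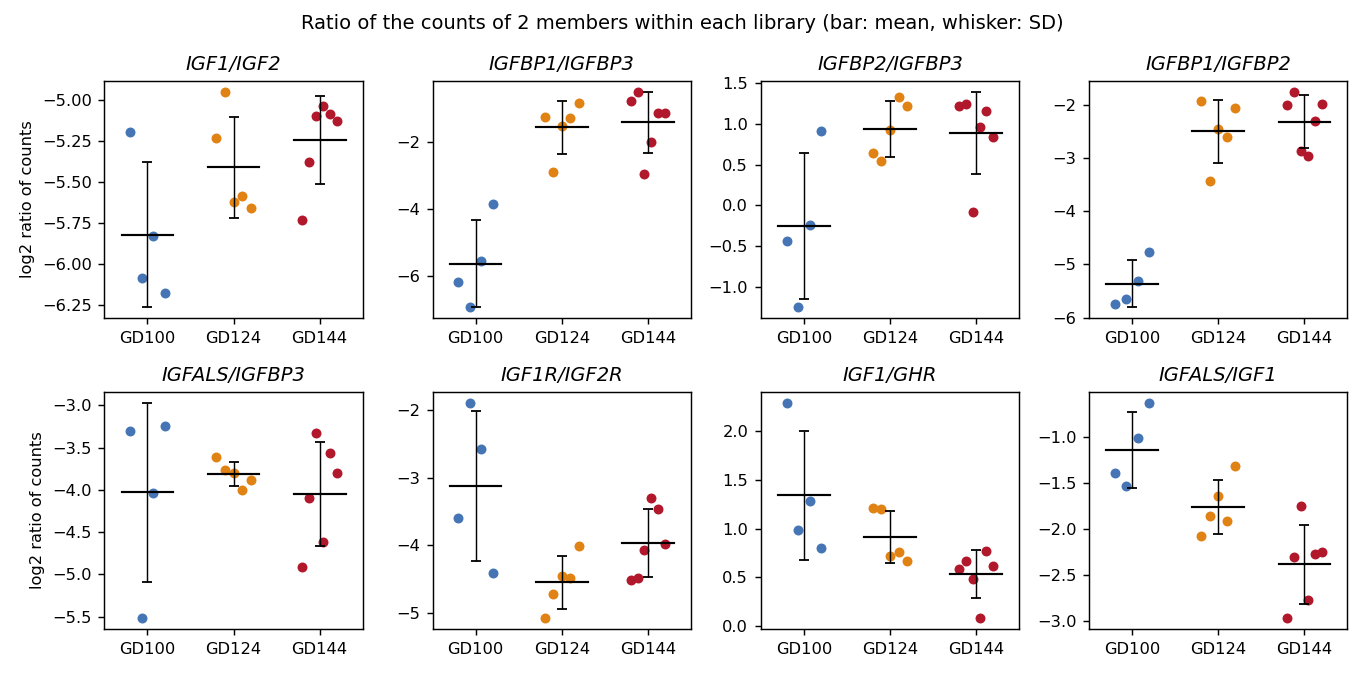
Log2 ratio of the counts of 2 genes within each library for 8 ratios, at GD100 (n = 4), GD124 (n = 5) and GD144 (n = 6). Points are libraries, bars are means and whiskers are SD. The IGFBP1/IGFBP3 and IGFBP1/IGFBP2 ratios at GD100 lie below all later libraries, and the IGFALS/IGF1 ratio is lower at GD144 than at GD100 in every library.

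Of the other IGF binding protein genes, 3 of 4 listed (IGFBP5, IGFBP6 and IGFBP7) were tested. In GD124 against GD100, 0 of 3 passed in either direction, with log2 changes of 0.21, 0.32 and 0.16 (edgeR adjusted p = 0.697, 0.375 and 0.524). In GD144 against GD124, 2 of 3 rose, IGFBP5 by a log2 change of 1.63 ± 0.34 (edgeR adjusted p = 0.0024) and IGFBP7 by 0.69 ± 0.16 (edgeR adjusted p = 0.0053). In GD144 against GD100 all 3 rose, by 1.83 ± 0.37, 0.89 ± 0.26 and 0.85 ± 0.18. Of all tested genes, 16.6%, 12.1% and 27.1% were called higher in GD124 against GD100, GD144 against GD124 and GD144 against GD100. The level of IGFBP5 was 83.5 ± 34.5 CPM at GD144 (n = 6), against 27.0 ± 6.73 CPM at GD124 (n = 5), and IGFBP6 stayed low, at 2.25 to 4.08 CPM at GD144. IGFBPL1 was too low to be tested.

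Of 8 genes for proteases that cut IGF binding proteins and for inhibitors of those proteases, 6 were tested. In GD124 against GD100, 1 rose and 0 fell, and in GD144 against GD124, 4 rose and 0 fell. In GD144 against GD100, 4 rose and 0 fell, and the median log2 change of the 6 was 1.01. Of all tested genes, 16.6%, 12.1% and 27.1% were called higher in these comparisons, so the 1 of 6 in the first is at the background. PAPPA, the protease that cuts IGFBP4, had 20.1 ± 8.56 CPM at GD144 (n = 6) and 3.55 ± 1.46 CPM at GD100 (n = 4), with a log2 change of 2.499 ± 0.37 (edgeR adjusted p = 3.11e-05). ADAMTS1 rose by 2.09 ± 0.30 (edgeR adjusted p = 2.72e-05) and MMP2 by 1.34 ± 0.39 (edgeR adjusted p = 0.00917), both extracellular metalloproteases. The fourth was HTRA1, a secreted serine protease (0.63 ± 0.17, edgeR adjusted p = 0.00373). STC1, an inhibitor of PAPPA, had a log2 change of 0.68 ± 0.43 that did not pass (edgeR adjusted p = 0.189), and PAPPA2 and STC2 were too low to be tested.

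Of 16 listed genes of growth hormone receptor signalling, 15 were tested. In GD124 against GD100, 1 rose and 3 fell, in GD144 against GD124, 3 rose and 1 fell, and in GD144 against GD100, 4 rose and 4 fell. Beside 34.0%, 27.5% and 55.0% of all tested genes called in these comparisons, the counts of 4, 4 and 8 of 15 are at or under the background. The median log2 change in the last was 0.16, against 0.03 over all tested genes. SOCS2, a suppressor of signalling whose loss in mice gives overgrowth, had 92.8 ± 16.7 CPM at GD144 (n = 6), against 33.1 ± 6.68 CPM at GD124 (n = 5). Its log2 change was 1.49 ± 0.17 in GD144 against GD124 (edgeR adjusted p = 2.48e-05) and 1.91 ± 0.19 in GD144 against GD100 (edgeR adjusted p = 6.30e-07). SOCS1, a related suppressor, rose by 1.69 ± 0.45 in GD144 against GD100 (edgeR adjusted p = 0.00418), and the transcription factor gene STAT3 rose by 1.39 ± 0.15 (edgeR adjusted p = 1.58e-06).

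The 4 genes of this list that fell in GD144 against GD100, named after their values were seen, were JAK2, STAT5A, STAT5B and CISH. JAK2, the kinase bound to the receptor, fell by 0.90 ± 0.15 on the log2 scale (edgeR adjusted p = 8.14e-05). STAT5A fell by 1.16 ± 0.31 (edgeR adjusted p = 0.00479) and STAT5B by 0.63 ± 0.14 (edgeR adjusted p = 0.00143), the transcription factors through which the receptor acts on IGF1. CISH, a feedback inhibitor, fell by 0.61 ± 0.21 (edgeR adjusted p = 0.0216), whereas the suppressor genes SOCS2 and SOCS1 rose, as given above. STAT5A and STAT5B overlap each other in the annotation and CISH overlaps HEMK1, so these values are uncertain where reads were shared. By interval, the log2 changes of JAK2, STAT5A, STAT5B and CISH were -0.37, -1.17, -0.61 and -1.04 in GD124 against GD100. They were -0.53, 0.01, -0.02 and 0.43 in GD144 against GD124. These 4 genes are also expressed in blood-forming cells, whose erythroid markers fell in GD144 against GD100 (10 of 11 lower). Of the erythroid markers, 3 of 11 were lower in GD124 against GD100 and 10 of 11 in GD144 against GD124. Their median log2 change was -1.72 in GD124 against GD100, where HBB alone was above 0, and -3.46 in GD144 against GD124. Of all tested genes, 17.4%, 15.4% and 27.9% were called lower in GD124 against GD100, GD144 against GD124 and GD144 against GD100. The part of blood-forming cells in the 4 genes was not tested.

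Of 32 listed genes of insulin and IGF receptor signalling, 31 were tested. In GD124 against GD100, 7 rose and 7 fell, in GD144 against GD124, 7 rose and 2 fell, and in GD144 against GD100, 9 rose and 6 fell, with a median log2 change of 0.16 in the last. The counts of 14, 9 and 15 of 31 stand beside 34.0%, 27.5% and 55.0% of all tested genes called, so that the count in GD144 against GD124 is near the background and that in GD144 against GD100 is under it. By size of change the leading genes in GD144 against GD100 were PIK3CB, a catalytic subunit of phosphoinositide 3-kinase, with -1.61 ± 0.23 (edgeR adjusted p = 2.17e-05), FOXO3, a transcription factor restrained by the pathway, with -1.17 ± 0.21 (edgeR adjusted p = 1.93e-04), and the adaptor gene IRS1 with 1.13 ± 0.18 (edgeR adjusted p = 7.44e-05). GRB10, an adaptor that dampens insulin and IGF1 receptor signals and was named after its values were seen, changed in opposite directions, by -0.80 ± 0.15 in GD124 against GD100 (edgeR adjusted p = 0.00123) and by 0.65 ± 0.14 in GD144 against GD124 (edgeR adjusted p = 0.00265). The test of the difference between the intervals gave 1.46 ± 0.26 for GRB10 (edgeR adjusted p = 0.00745).

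**Figure D5:**
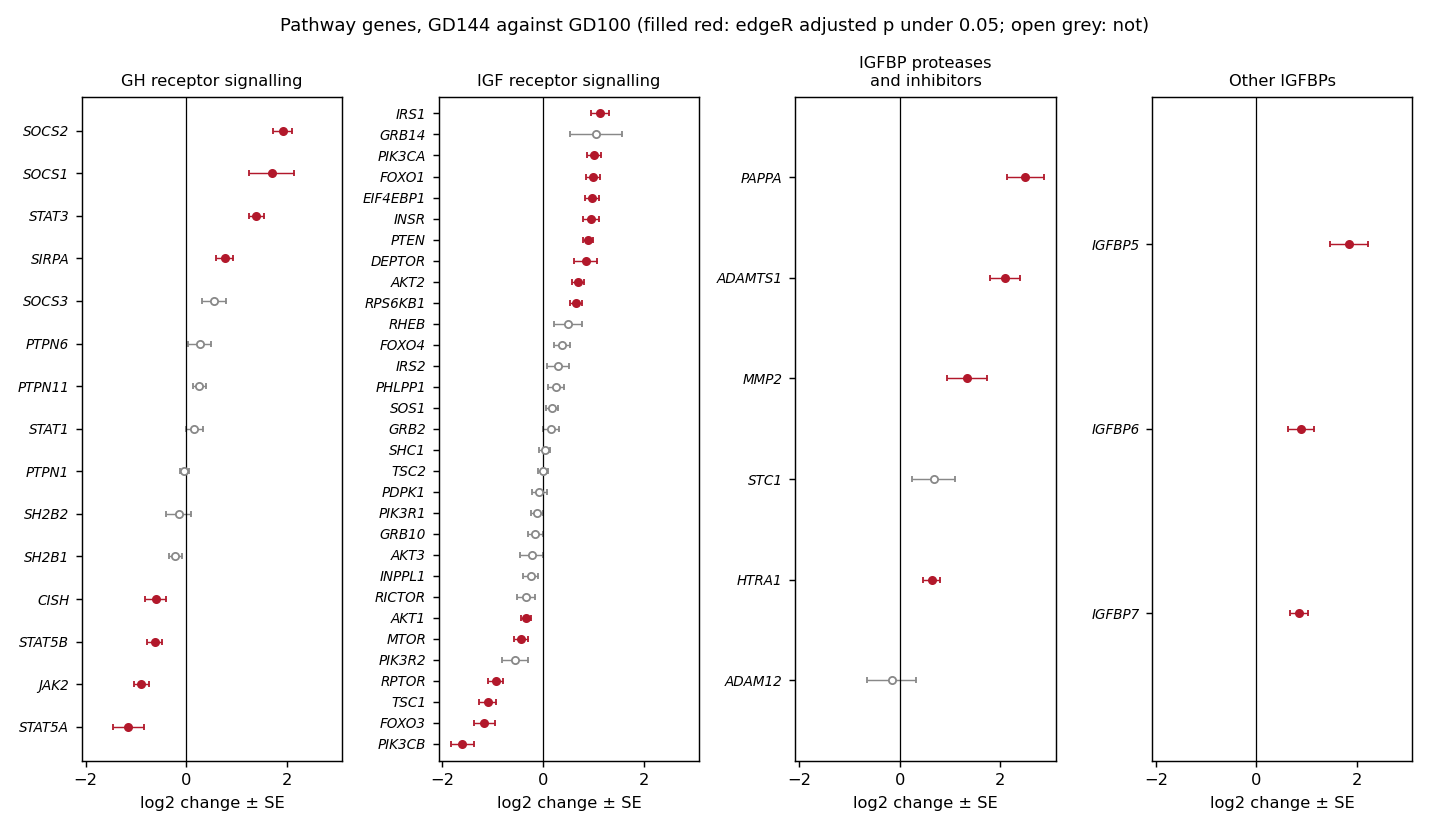
Log2 change with SE in GD144 against GD100 for the tested genes of 4 lists, namely growth hormone receptor signalling, IGF receptor signalling, proteases of binding proteins with their inhibitors, and other IGF binding proteins. Filled red points passed an edgeR adjusted p under 0.05 and open grey points did not. Both signalling lists hold filled points on either side of 0, from -1.61 for PIK3CB to 1.91 for SOCS2, while the filled points of the other 2 lists lie above 0.

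The genes whose profile over the 15 libraries lay closest to each of the 10 were found by the root mean square difference of centred log2 CPM, as a description. HAO1 and ALDH6A1 were closest to GHR, at 0.208 each. HAO1, a liver enzyme gene of glycolate oxidation, averaged 37.0 CPM at GD100, 119 CPM at GD124 and 191 CPM at GD144. CLHC1 and C21H11orf54 were closest to IGF1 (0.223 and 0.224), GLMP and GOLIM4 to IGF2 (0.151 and 0.197), and ACVR1 and ERBB2 to IGF2R (0.161 and 0.181). KALRN and LACTB2 were closest to IGFBP4 (0.175 and 0.179), and SPATS1 and FZD6 to IGFBP2 (0.348 and 0.354).

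HEATR3 and DDI2 were closest to IGF1R (0.197 and 0.222), GORASP1 and ZRANB3 to IGFBP3 (0.136 and 0.144), and FABP1 and IGSF11 to IGFALS (0.278 and 0.291). For IGFBP1 the nearest genes were LEPR, the leptin receptor gene, at 0.930 and AQP9, a liver glycerol channel gene, at 0.979. These distances stand beside a root mean square of 2.12 for the centred IGFBP1 profile itself. LEPR averaged 2.36 CPM at GD100, 15.3 CPM at GD124 and 29.3 CPM at GD144. Genes with a flat profile lie close to many others, so the measure is not comparable between the 10 genes.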

How the data were processed

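Poly(A) RNA of fetal sheep liver was sequenced with paired ends, per the labels' protocols. The authors deposited 1 table of estimated counts per gene for 15 libraries, not normalised. The submitters' processing notes name DRAGEN, which maps and counts reads. Its version, the build and the use of strand are not stated there or in the labels. Estimated counts were made whole before testing, and library totals moved by 27.86 at most.

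The 15 libraries entered 1 edgeR 4.0.16 fit (R 4.3.3, quasi-likelihood F-test, robust, TMM, filterByExpr) with stage as its term. Benjamini-Hochberg adjustment ran over 16977 genes, with a threshold of 0.05. The procedure was also run on simulated counts with the same dispersion for all genes and stages. Such counts do not carry the unequal spread of these libraries, so they do not test that setting. CPM are counts divided by the tested-gene total times the TMM factor. An SE is the absolute log2 change over the square root of F. Ratios were tested over libraries with scipy 1.17.1. For likeness 0.5 was added to CPM before log2. No 2 replicates were duplicates (chi-square per degree of freedom of at least 43.72). Floors cover counting error only.

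Same-numbered replicates showed weak correlations of their deviations (-0.186 to 0.173), and the fit reported treats them as unpaired. Such correlations cannot exclude a pairing by number, since they were set against no reference. The 10 genes and all lists were chosen with earlier results of these data known. From each pathway list the 3 called genes of largest change in GD144 against GD100 were named, and the others named were chosen after their values were seen. Overlaps and neighbours come from the RefSeq table of ARS-UI_Ramb_v3.0, in which all 10 symbols were found, and whether the counts rest on that assembly is not known. Alternatives were other scalings, filters, DESeq2 1.42.0, limma-voom (limma 3.58.1), a replicate block, 2 stages alone and libraries left out.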

Additional observations from a re-analysis of the deposited data

Results flagged for a closer look

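IGFBP1 differed between the intervals, with a later change minus earlier change of -3.72 on the log2 scale by a test of the difference itself (edgeR adjusted p = 0.0323).

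In 54 groups of 4 to 6 libraries (the CPM of the 10 genes and the 8 ratios at each stage), 3 single libraries lay far from the rest of their stage by Dixon's criterion, and chance flags about 1 in 20 groups. IGFBP3 had 946.9 CPM in GD124 replicate 2, the highest of 5 libraries. IGFBP3 had 1022 CPM in GD144 replicate 1, the highest of 6 libraries. The log2 ratio of IGFBP2 to IGFBP3 counts was -0.082 in GD144 replicate 3, the lowest of 6 libraries, and this library also had the high erythroid sum of 3450 CPM.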

How the results depend on the processing

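GHR, IGFBP1, IGFBP2 and IGFBP4 kept their call in GD124 against GD100 in all 26 alternative settings, and GHR, IGF1, IGF2, IGFBP1, IGFBP2 and IGFBP4 kept theirs in GD144 against GD100. In GD144 against GD124, GHR kept its call in all 26, and IGFBP4 lost it with the replicate block (0.61, edgeR adjusted p = 0.0526), which left 1 of the 10 genes called there. No other count of the 10 in a comparison of 2 stages moved by over 1.5 times. Over the 26 alternative settings, 5 to 8 of the 10 genes were called in GD124 against GD100, where 7 were called in the fit reported. With each library left out in turn the count also ran over 5 to 8, beside 24.2 to 36.1% of all tested genes called. The later minus earlier test depended most on the setting. Of the 10 genes it called 0 with no filter beyond a count above 0, 0 with the replicate block, 2 with GD100 replicate 1 as the single library of its stage, 4 with GD100 replicate 4 and GD144 replicate 3 both left out, and 0 to 4 with each library left out in turn. Of all tested genes it called 325 (1.91%) with the replicate block and 1951 (11.3%) with both libraries left out. With each library left out in turn it called 379 to 1743 (2.24 to 10.1%), against 5.90% in the fit reported. With GD100 replicate 1 alone, 3167 genes were called in GD124 against GD100, and the lone library is assumed to vary like the other stages. The causes were not tested. Total counts alone moved the median of all genes in GD124 against GD100 to -0.16 on the log2 scale and split the calls into 1805 higher and 4055 lower, against 2825 and 2949 in the edgeR fit reported.

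Estimates that changed sign passed no test. The later minus earlier difference of IGFBP3 was 0.046 with total counts alone, and IGF1R in GD144 against GD100 was 0.10 with GD100 replicate 1 alone. With each library left out in turn, GD144 against GD124 ran over -0.056 to 0.21 for IGFBP2 and -0.29 to 0.024 for IGFALS. The log2 ratio differences in GD144 against GD124 ran over -0.19 to 0.45 for IGFBP1/IGFBP3, -0.14 to 0.15 for IGFBP2/IGFBP3 and -0.049 to 0.33 for IGFBP1/IGFBP2. For IGFALS/IGFBP3 they ran over -0.28 to 0.47 in GD124 against GD100 and -0.52 to 0.24 in GD144 against GD100. With 4 to 6 libraries a stage and a biological coefficient of variation of 34.0%, small changes of single genes may not be resolved.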
